A study of Homo sapiens with 4 samples.

Results

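IFN-γ-only promoter peaks of Flag-tagged FLI1 in HK1 cells were 3982 regions among 39654 peaks called after IFN-γ and 70473 peaks called in both libraries. HK1 is an established cell line of nasopharyngeal carcinoma (NPC). Each of these regions was selected on measured values: a peak had been called in the IFN-γ library, and no peak of the control library shared a base with it. Each also reached into the 3 kb on either side of a transcription start site (TSS) of any GENCODE 44 transcript. Regions with a run of 4 or more tandem GGAA units on either strand within 100 bp of the summit, the position of highest signal in the peak, were left out, which removed 329. Of all IFN-γ peaks 39.0% overlapped no control peak, and of the 18627 IFN-γ peaks at a promoter 23.1% did (4311 peaks). The absence of a control peak is thus the selection itself and no result.

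Both libraries came from HK1 cells that overexpress FLI1 with a Flag tag. Chromatin was precipitated with an antibody against Flag, so the signal comes from the introduced protein and not from native FLI1. Control cells received PBS and treated cells IFN-γ, each for 24 h, and each condition had 1 library. With 1 library per condition no difference between conditions could be tested, and the intervals below are exact 95% binomial intervals that cover counting error only. Input libraries were listed for both conditions and were not analysed here.

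FLI1 belongs to the ETS family of transcription factors, which bind DNA around the core GGAA and prefer longer forms such as CAGGAAGT and CCGGAAGT, called the ETS octamer here. AP-1, a dimer of FOS and JUN family proteins, binds TGACTCA, mostly at enhancers. IFN-γ acts through the kinases JAK1 and JAK2 on STAT proteins, whose dimers bind the GAS element, while interferon regulatory factors bind the interferon-stimulated response element (ISRE). Most housekeeping promoters lie in CpG islands, stretches rich in G, C and CpG, whereas many inducible and tissue-specific promoters do not.

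The 201 bp around the summit are shown for 4 of the regions, the strongest with AP-1, with the ETS octamer, with the ISRE and with the GAS among the 20 motifs searched. Windows on an annotated exon were passed over. All are given 5′ to 3′ on the plus strand of GRCh38, with the motif in capitals. The ISRE was searched as 2 GAAA units in the same orientation with any 2 bases between them, and the GAS as TTCCNGGAA.
RHBDD2 (TGACTCA, chr7:75842915-75843115): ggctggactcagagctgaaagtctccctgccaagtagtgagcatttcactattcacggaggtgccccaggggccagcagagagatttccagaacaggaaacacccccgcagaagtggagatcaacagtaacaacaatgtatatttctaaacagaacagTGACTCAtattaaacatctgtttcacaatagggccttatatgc
ENSG00000225676 (CCGGAAGT, chr22:30205878-30206078): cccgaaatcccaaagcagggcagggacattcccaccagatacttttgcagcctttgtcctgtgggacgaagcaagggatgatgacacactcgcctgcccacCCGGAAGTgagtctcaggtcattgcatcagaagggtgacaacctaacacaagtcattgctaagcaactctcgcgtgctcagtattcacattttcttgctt
NAV3 (ISRE letters, chr12:77943571-77943771): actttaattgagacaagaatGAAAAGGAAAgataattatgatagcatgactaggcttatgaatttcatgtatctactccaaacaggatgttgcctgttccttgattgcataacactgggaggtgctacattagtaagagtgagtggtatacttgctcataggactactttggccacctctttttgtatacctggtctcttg
LGALS17A (GAS, chr19:39678214-39678414): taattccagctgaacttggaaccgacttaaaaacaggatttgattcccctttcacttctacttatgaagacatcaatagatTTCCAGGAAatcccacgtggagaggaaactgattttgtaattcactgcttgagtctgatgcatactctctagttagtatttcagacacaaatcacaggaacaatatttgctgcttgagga

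The window at RHBDD2, a rhomboid-like membrane protein gene, held TGACTCA and no ETS octamer. The windows at NAV3, a microtubule-associated navigator gene, and at LGALS17A, a noncoding RNA gene, held interferon-type elements without TGACTCA. Fold enrichment is the ratio of fragments at the summit to the local background, both with 1 added, as the peak caller gave it.

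Most of the regions were weak peaks. Their median fold enrichment was 4.80, with quartiles of 3.94 and 6.30 and a range from 2.42 to 27.0. The median pileup, the number of fragments stacked at the summit, was 16 and ranged from 7 to 99. Median width was 315 bp. Promoter peaks that the control list shared, outside repeats and numbering 13924, had a median fold enrichment of 7.76 and a median pileup of 28. Because strength differed through the selection, 3733 shared promoter peaks with a pileup of 12 to 20, the interquartile range of the IFN-γ-only regions, served as a comparison at like pileup. Their median fold enrichment was 4.86.

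The IFN-γ library was the deeper of both as far as the lists show. Its lowest local background was 1.54 fragments, against 1.06 in the control library, a ratio of 1.46. With pileup and background divided by this ratio, 87.4% of the regions (86.4 to 88.5%) still passed the lowest −log10 p of the control list, 3.52. By this calculation the remaining 500 would not have been called at the control depth. With the IFN-γ list instead cut to its 30819 strongest peaks, the length of the control list, 2225 of the 3982 regions remained. A control peak lay within 500 bp of 12.6% of the regions and within 1000 bp of 20.5%. The part of depth in the other properties was not tested beyond these values and the alternatives given at the end.

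The regions lay farther from start sites than the other classes of promoter peaks did. The summit lay within 100 bp of the nearest TSS in 15.1% (14.0 to 16.3%), within 500 bp in 35.4% and within 1000 bp in 51.03% (49.5 to 52.6%). Shared promoter peaks at like pileup lay within 100 bp in 34.8% (33.3 to 36.4%) and within 1000 bp in 84.4%. Promoter peaks found only in the control library, 3578 outside repeats, lay within 100 bp in 29.0% and within 1000 bp in 73.7% (72.2 to 75.1%). The median distance was 964 bp, against 192 bp for shared peaks at like pileup and 279 bp for control-only peaks. Over the whole window neither side was favoured, since 50.4% (48.9 to 52.0%) of summits lay upstream of the nearest TSS. Next to the TSS the sides differed: the 200 bp just upstream held 14.0% of summits and the 200 bp just downstream 8.66%.

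**Figure D1:**
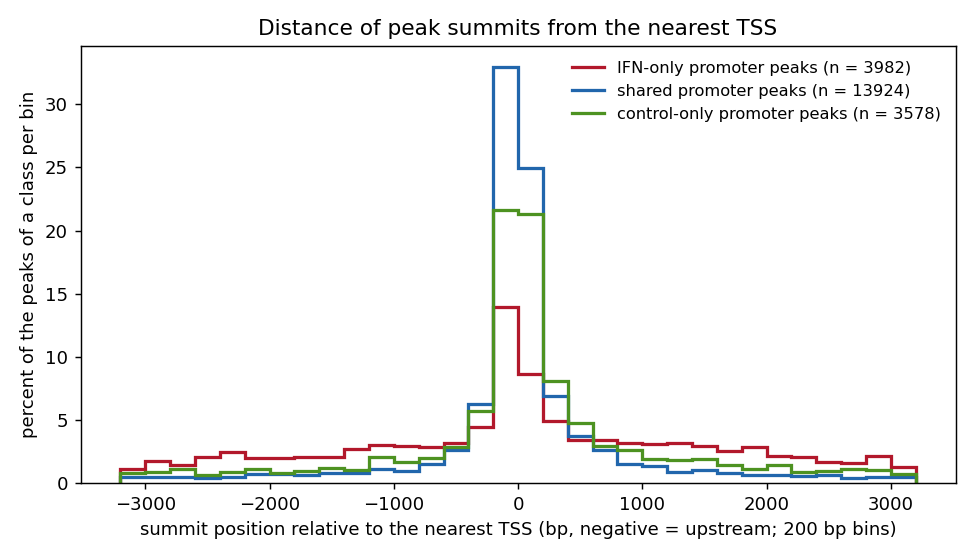
Position of the summit relative to the nearest TSS, in bp with upstream negative, as the percent of each peak class per 200 bp bin. IFN-γ-only promoter peaks (red) reach 14.0% in the bin just upstream of the TSS, where shared promoter peaks (blue) reach 33.0% and control-only peaks (green) 21.6%, and lie above both classes beyond 1000 bp.

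By annotation, 59.5% of the summits fell in introns, 20.6% outside genes, 17.3% in untranslated or noncoding exons and 2.61% in coding exons. At like pileup, 42.3% of shared promoter peaks fell in introns and 31.0% in untranslated or noncoding exons. The nearest TSS belonged to a protein-coding gene for 61.3% of the regions (59.8 to 62.8%), against 79.1% of shared peaks at like pileup (77.8 to 80.4%) and 75.7% of control-only peaks. Long noncoding RNA genes took 25.1%, against 16.9% at like pileup. Processed pseudogenes, copies of messenger RNA that mostly lack a promoter, took 5.88%, against 1.22% of all shared promoter peaks. These shares also depend on the annotation, since any annotated transcript counted as a promoter, in every peak class. With only 1 TSS kept per gene, the protein-coding share of the regions was 45.9%. The part of the annotation in the differences between classes was not tested.

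GC content separated the regions from other promoter peaks. The median GC content of the 201 bp around the summit was 47.8%, with quartiles of 41.3% and 55.2%, close to the 46.8% of the sequence 1 kb to either side. Shared promoter peaks had a median of 64.7%, those at like pileup 66.2% and control-only peaks 65.2%. IFN-γ-only peaks away from promoters, 9307 outside repeats, had a median of 43.8%, so the regions lay nearer to these than to either promoter class. All IFN-γ promoter peaks outside repeats had a median of 61.2% and all control ones 65.7%. Base composition thus moved with the library, and with 1 library each the treatment and the library cannot be told apart.

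**Figure D2:**
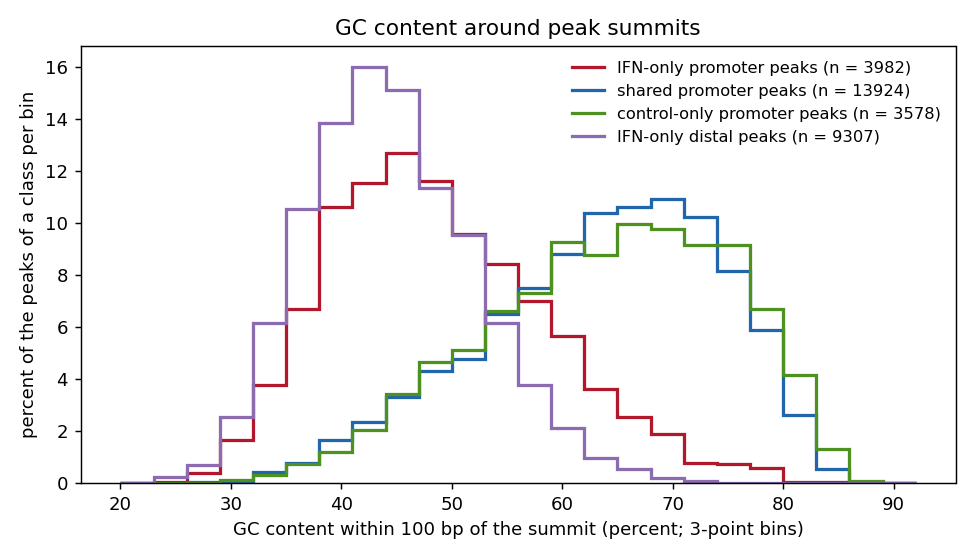
GC content within 100 bp of the summit, in percent, as the percent of each peak class per bin of 3 points. IFN-γ-only promoter peaks (red, median 47.8%) overlap the IFN-γ-only distal peaks (purple, median 43.8%) more than the shared (blue, median 64.7%) or control-only promoter peaks (green, median 65.2%).

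CpG-island-like sequence, with GC above 50% and an observed to expected CpG ratio above 0.6 within 500 bp either side, was found at 421 regions, or 10.6% (9.63 to 11.6%). It was found at 65.3% of shared promoter peaks at like pileup, 49.2% of control-only peaks and 0.365% of IFN-γ-only distal peaks. The 421 regions differed from the others in several respects. Their median distance from a TSS was 150 bp against 1125 bp for the rest, 82.7% were nearest a protein-coding gene against 58.8%, and their median fold enrichment was 4.13 against 4.91. Only 2.85% of them held TGACTCA, against 21.0% of the rest.

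The low GC content was found near to start sites and far from them. Among the 1411 regions within 500 bp of a TSS the median GC content was 51.7%, against 68.7% among the 2720 shared peaks at like pileup within that distance. CpG-island-like sequence was found at 25.5% (23.3 to 27.9%) of these regions and 78.9% of these shared peaks. Beyond 1000 bp the medians were 45.8% for 1950 regions and 55.7% for 584 shared peaks at like pileup. The difference in composition was therefore present at each distance examined.

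AP-1 and ETS octamer sequences were several times as frequent at the summits as in the neighbouring sequence. TGACTCA lay within 100 bp of the summit in 759 regions, 19.1% (17.9 to 20.3%), against 3.19% of windows of the same width centred 1 kb to either side. It was found in 7.15% (6.35 to 8.03%) of shared peaks at like pileup, 8.66% of all shared promoter peaks, 7.13% of control-only peaks, 26.2% of IFN-γ-only distal peaks and 2.08% of 201 bp windows centred on the main TSS of 19061 protein-coding genes. The ETS octamer was found in 466 regions, 11.7% (10.7 to 12.7%), against 1.63% of the neighbouring windows. It was found in 5.71% (4.98 to 6.50%) of shared peaks at like pileup, 16.7% of all shared promoter peaks, 4.42% of control-only peaks and 7.19% of gene start windows. The regions in these values kept their full range of pileup. The 2216 regions with a pileup of 12 to 20, the same limits as for the shared peaks, held the octamer in 11.1% (9.87 to 12.5%) and TGACTCA in 17.5% (15.9 to 19.1%).

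The GGAA core alone is short and common: it was found in 97.3% of the regions and in 82.0% of the neighbouring windows. Both TGACTCA and the octamer were found in 96 regions, 2.41%, which had a median fold enrichment of 6.31. Regions with TGACTCA had a median of 5.46, those with the octamer 5.52 and the 2853 with neither 4.70. The octamer lay nearer to the summit than the AP-1 motif, with medians of 19 bp and 32 bp. In 62.2% (57.7 to 66.7%) of regions with an octamer it lay within 25 bp of the summit, and TGACTCA did so in 41.9% (38.4 to 45.5%), where an even spread over the window would give about 25.4%.

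**Figure D3:**
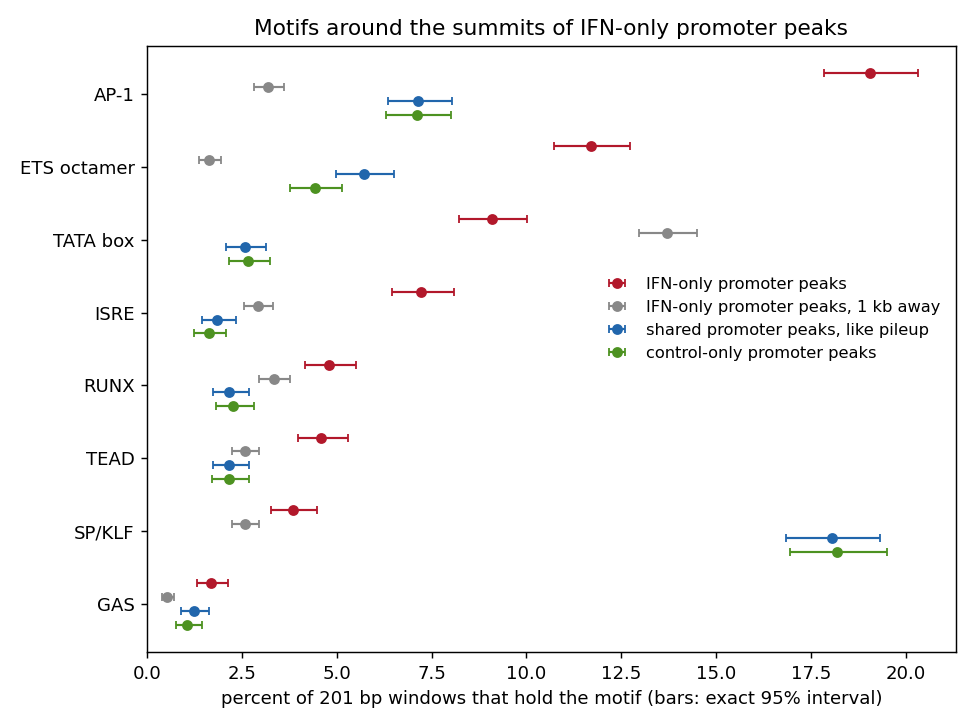
Percent of 201 bp windows that hold each motif on either strand, with exact 95% binomial intervals, for IFN-γ-only promoter peaks (red), the windows 1 kb to either side of them (grey), shared promoter peaks at like pileup (blue) and control-only promoter peaks (green). AP-1 (19.1%), the ETS octamer (11.7%), the ISRE (7.23%), RUNX (4.80%) and TEAD (4.60%) stand above the other 3 groups in the IFN-γ-only peaks, with separate intervals. SP/KLF (3.84%) stands below both other peak classes.

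Motif shares also differed by distance and by strength. TGACTCA was found in 15.7% of regions within 500 bp of a TSS, against 4.71% of shared peaks at like pileup there. Beyond 1000 bp the shares were 22.7% (20.8 to 24.6%) and 17.5% (14.5 to 20.8%), and all shared promoter peaks at that distance held it in 509 of 2213 cases (21.3 to 24.8%). With the regions also held to a pileup of 12 to 20, the shares were 14.8% (12.4 to 17.5%) within 500 bp and 20.6% (18.2 to 23.1%) beyond 1000 bp. The difference in AP-1 sequence was therefore seen near the TSS, and was not resolved beyond 1000 bp. In regions held to that pileup, the octamer was found in 9.99% (7.99 to 12.3%) within 500 bp. Shared peaks at like pileup held it in 4.41% (3.67 to 5.25%) there. Beyond 1000 bp the octamer shares were 11.8% (9.96 to 13.9%) and 9.93% (7.63 to 12.6%), so this difference was not resolved there either. Ranked by the −log10 p of the peak caller, the 399 strongest regions held TGACTCA in 35.1% (30.4 to 39.99%), the next 1592 in 21.8% and the 1991 weakest in 13.7% (12.2 to 15.2%). The octamer was found in 20.3%, 14.3% and 7.94% of the same groups. Stronger regions were also lower in GC content, at medians of 44.3%, 46.8% and 49.2%, and lay within 1000 bp of a TSS less often, in 40.9%, 46.7% and 56.5%.

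**Figure D4:**
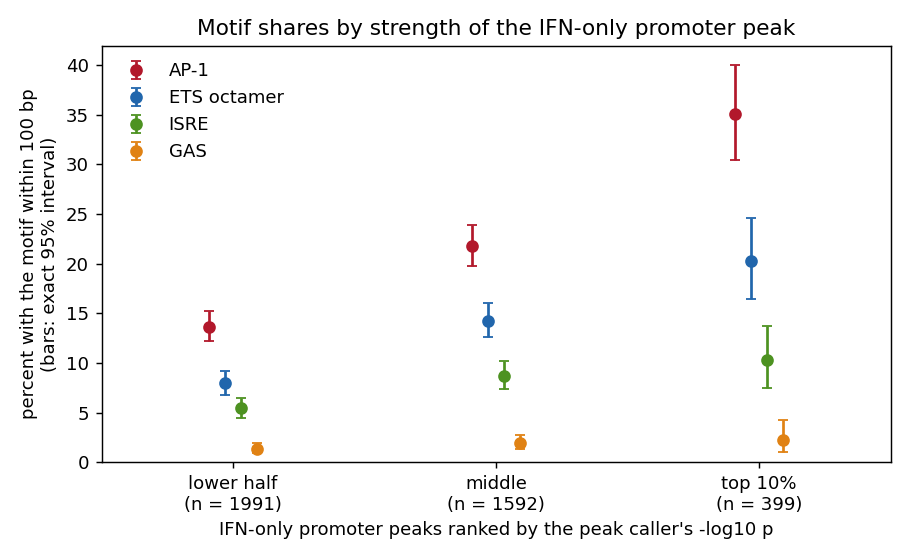
Percent of IFN-γ-only promoter peaks with each motif within 100 bp of the summit, by rank of the peak caller's −log10 p, with exact 95% binomial intervals. From the 1991 weakest to the 399 strongest peaks the share with TGACTCA goes from 13.7% to 35.1% and that with the ETS octamer from 7.94% to 20.3%.

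Interferon-type elements were found in a minority. The ISRE letters were present in 288 regions, 7.23% (6.45 to 8.08%), against 2.91% of neighbouring windows, 1.85% (1.44 to 2.33%) of shared peaks at like pileup, 1.62% of control-only peaks and 1.84% of gene start windows. These letters are rich in A, and the regions with them had a median GC content of 43.3%. IFN-γ-only distal peaks, which were also low in GC, held them in 9.80%. GA-rich sequence can hold them many times over, as the region at AFAP1 does with 5 overlapping matches. The GAS TTCCNGGAA, which contains GGAA on both strands, was found in 67 regions, 1.68% (1.31 to 2.13%), against 0.527% of neighbouring windows and 1.23% (0.904 to 1.64%) of shared peaks at like pileup. In the looser form TTCNNNGAA the share was 7.18%, near the 5.45% of the neighbouring windows.

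Elements typical of CpG-island promoters were few. GGGCGGGG, bound by SP and KLF factors, was found in 3.84% of the regions, against 18.1% of shared peaks at like pileup and 26.4% of gene start windows. CGCGCG was found in 2.08%, against 16.0% and 20.4%. GCGCATGC, bound by NRF1, was found in 0.502% (0.307 to 0.775%), against 2.996% of gene start windows. AAGATGGCG, bound by YY1, was found in 0.477% (0.288 to 0.744%), against 2.76%. Shared peaks at like pileup held them in 0.911% (0.632 to 1.27%) and 0.723% (0.477 to 1.05%), with intervals that overlap those of the regions. The TATA box letters TATAAA were found in 9.09%, more than the 2.57% of shared peaks at like pileup and less than the 13.7% of the regions' own neighbouring windows. ACATTCC, bound by TEAD factors, was found in 4.60% against 2.59% of neighbouring windows, and TGTGGTT, bound by RUNX factors, in 4.80% against 3.34%. Shared peaks at like pileup held ACATTCC in 2.17% and TGTGGTT in 2.17%. For the remaining searches the share of neighbouring windows follows each value. CCAATCA (NFY) was found in 2.18% against 2.05%, CACGTG (E-box) in 2.36% against 2.66% and TGACGTCA (CRE) in 0.552% against 0.163%. AACCGGTT (GRHL) was found in 0.0753% against 0% and the CTCF motif in 0.929% against 0.138%. The NF-κB motif was found in 2.03% against 1.00%, and the p53 and p63 motif in 5.55% against 5.01%.

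Among the regions with GGAA, 3495 had only separate units, 298 a longest run of 2 units and 83 a run of 3, and 106 held no GGAA. Regions with a run of 3 lay further from the TSS, at a median of 1611 bp, and had a median fold enrichment of 4.89 and a median GC content of 44.8%. The 82 IFN-γ-only promoter peaks just outside the limit, with a run of 4, had 1588 bp, 6.23 and 44.8%. The strongest region with a run of 3 lay at AFAP1, an actin filament-associated protein gene, with a fold enrichment of 11.5, followed by ARHGAP24, a GTPase-activating protein gene, with 14.2. At the limit of the promoter window, 116 regions had their summit beyond 3 kb and a median fold enrichment of 5.43, and 562 IFN-γ-only distal peaks with a summit within 4 kb had 5.12. At the limit of overlap, 83 regions had a control peak within 100 bp, with a median fold enrichment of 3.98 and GC content of 54.7%, and 136 shared promoter peaks overlapped a control peak by at most 100 bp, with 3.998 and 60.2%.

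The strongest region lay in an intron of RHBDD2, 413 bp downstream of a TSS, with 99 fragments, a fold enrichment of 26.1 and a −log10 p of 114. It ranked 1300th among all IFN-γ peaks, so that 1299 stronger peaks were shared, distal or on repeats. Next came ACAD11, an acyl-CoA dehydrogenase gene, with 76 fragments at 3089 bp upstream, KLC3, a kinesin light chain gene, with 67 fragments at 2605 bp downstream, and ST6GALNAC1, a sialyltransferase gene, with 78 fragments at 1934 bp downstream. RUBCN, a regulator of autophagy, had 70 fragments. PAPSS2, which makes the sulfate donor PAPS, had 69, and NAV3 66. PSMB7, a proteasome subunit gene, had 84 over a higher local background of 5.31 fragments. The lncRNA gene ENSG00000225676 had 63 fragments, ARPC2, a subunit of the actin-nucleating ARP2/3 complex, 61, and CCDC201 60. Of the 15 strongest, 12 were intronic, 6 held TGACTCA and 3 held an octamer.

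Only at CAST, which encodes the calpain inhibitor calpastatin, did a region among the 15 strongest have its summit at the TSS itself. It had 60 fragments and held both the octamer and TGACTCA. The last of the 15 were TLR6, a Toll-like receptor gene, with 63 fragments at 974 bp upstream, the cell adhesion gene NRCAM with 57 and the lncRNA gene ENSG00000287050 with 66. Of regions with interferon-type elements, the strongest with a GAS lay 12 bp from the TSS of CD70, a ligand of the TNF family that costimulates T cells, with 67 fragments. The strongest with ISRE letters lay at NAV3, AFAP1, FLT3, a haematopoietic receptor kinase gene with 55 fragments, and 2 lncRNA genes. TLK2, a kinase gene of chromatin assembly, had a GAS and an octamer under 35 fragments.

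The regions were assigned to 3579 genes by the nearest TSS, 351 of which had 2 or more. Of 20046 protein-coding genes 2127 had a region, 10.6%. Most of these genes had promoter signal without IFN-γ as well, as 73.6% (71.6 to 75.4%) of the 2127 also had a control peak at some TSS, where 61.9% of all protein-coding genes did, and 562 had none. Of 933 lncRNA genes with a region, 59.2% had no control promoter peak. The same share among all lncRNA genes was not counted, so this value has no background to be read against. Genes with a region had more annotated start sites, a median of 9 against 5 for all protein-coding genes, which gives them more promoter windows. CACNA1A, a calcium channel gene, IGF2BP3, an RNA-binding protein gene, and STARD13, a GTPase-activating protein gene, had 5 regions each, the most of any gene.

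Genes of the IFN-γ response had the highest share of the 18 lists, 14 of 40 or 35.0% (20.6 to 51.7%), against 10.6% of protein-coding genes. An IFN-γ promoter peak was found at 31 of the 40 genes, where 59.7% of all protein-coding genes had one. The 31 include genes whose only such peaks are regions of this class. A control promoter peak was found at 25 of the 40, near the 61.9% of all protein-coding genes. The list had a median of 6.5 annotated start sites, against 5 for all protein-coding genes. For 6 of the 14 the control list held no promoter peak: IRF9, GBP4, CXCL11, CD274, SP100 and APOL6. At these 6 the strongest region of each gene lay within 72 bp of a TSS. SP100, a nuclear body protein gene, had 57 fragments at 5 bp from the TSS with both the octamer and TGACTCA. IRF9, an interferon regulatory factor gene, had 27 fragments at 45 bp upstream, with an octamer. CXCL11, a chemokine that attracts T cells, had 27 at 72 bp upstream, GBP4, a guanylate-binding protein gene, 19 at 66 bp upstream with ISRE letters, and APOL6, an apolipoprotein L gene, 19 at 14 bp downstream with a GAS. CD274, which encodes PD-L1, had 11 fragments at 3 bp from the TSS, a weak peak with a fold enrichment of 4.73.

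The other 8 response genes had a control peak at some TSS, at distances from the region that varied. GBP3 had 41 fragments at 9 bp from the TSS, with TGACTCA and ISRE letters, and its nearest control peak was 565 bp away. GBP5 had 31 fragments at 1659 bp upstream, and its nearest control peak was 11326 bp away. IRF1, another interferon regulatory factor gene, had regions of 26 and 13 fragments. BATF2, CASP1, ISG15 and NLRC5 had 22, 17, 14 and 12 fragments.

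Upstream of the response, 4 of 12 genes of the IFN-γ receptor and JAK-STAT pathway had a region (33.3%, 9.92 to 65.1%). This wide interval includes the 10.6% of all protein-coding genes, and all 12 genes had a control promoter peak. The 4 were the receptor chain IFNGR2 with 10 fragments, the kinase JAK1 with 11, the feedback inhibitor SOCS1 with 17 and the STAT inhibitor PIAS1 with 16. The SOCS1 region lay 2708 bp upstream and held ISRE letters 3 times. These were weak to middling peaks of the class, whose median pileup was 16. The 12 genes had a median of 18.5 annotated start sites, against 5 for all protein-coding genes.

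Of MHC class I presentation genes 3 of 20 had a region, which is near the share of all genes: the light chain gene B2M with 16 fragments, the peptidase gene ERAP2 with 15 and the immunoproteasome subunit gene PSMB9 with 13. Of kynurenine pathway and aryl hydrocarbon receptor genes 3 of 21 did: KYNU, which encodes kynureninase, with 14 and 12 fragments, the amino acid transporter chain SLC3A2 with 18 and CYP1A1, a target of the receptor, with 13. IDO1, the enzyme that starts the kynurenine pathway, had no promoter peak in either library, and neither did the FLI1 gene itself. The acetyltransferase genes CREBBP and KAT5 had promoter peaks in both libraries and no IFN-γ-only region outside repeats. Of immune checkpoint ligands 3 of 20 had a region, PVR with 17 fragments, CD274 with 11 and TNFRSF14 with 10. The intervals of the MHC class I, kynurenine and checkpoint lists all include the 10.6% of all protein-coding genes.

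Several signalling lists had shares above that of all genes, at pileups on both sides of the class median of 16. Their genes also had more annotated start sites, and thus more promoter windows. The medians were 9 for NF-κB pathway genes, 7 for TGF-β and SMAD genes and 7 for cell cycle genes, against 5 for all protein-coding genes. The part of this in the shares was not tested. NF-κB pathway genes had 7 of 21 (33.3%, 14.6 to 57.0%), all 21 with a control promoter peak. They included the inhibitory adaptor TNIP1 with 45 and 19 fragments, the inhibitory enzyme TNFAIP3 with 20 and the inhibitors NFKBIE with 17 and NFKBIA with 12. TGF-β and SMAD genes had 7 of 24 (29.2%, 12.6 to 51.1%), among them SMAD3 with 37 and 12 fragments, the inhibitory SMAD7 with 19, the receptor TGFBR2 with 11 at each of 2 sites and SMAD1 with 11. Cell cycle genes had 8 of 30 (26.7%, 12.3 to 45.9%), among them CCND1, encoding cyclin D1, with 14, 11 and 11 fragments, RBL2 with 16, and CDK6 and RB1, each with a highest pileup of 14.

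The list labelled squamous epithelium had 9 of 36 genes with a region (interval 12.1 to 42.2%). The label is too narrow, since the 9 include KRT8, KRT18, KRT19 and CDH1, which are not specific to squamous epithelium. Whether the interval would lie above the 10.6% of all genes without them was not tested. CDH1, which encodes E-cadherin, had the strongest region of the 9 genes, 57 fragments at 2243 bp upstream of its nearest TSS, with an octamer and TGACTCA. KRT6A, a keratin of stratified epithelium, had 30 fragments and no control promoter peak, KRT18 had 22 and the laminin gene LAMA3 19. Targets of EWSR1-FLI1 in Ewing sarcoma, where the fusion protein binds long GGAA repeats, had 6 of 21 (28.6%, 11.3 to 52.2%). All 6 had a control promoter peak. The list had a median of 6 annotated start sites. Of the 6, CCND1, TGFBR2 and JAK1 are also counted in the lists above. IL1RAP with 18 fragments and CAV1 with 16 were among the others. Haematopoietic and endothelial targets of native FLI1 had 5 of 28 (17.9%, 6.06 to 36.9%), with an interval that includes the 10.6% of all genes. Among these 5 were the transcription factor gene RUNX1 with 29 fragments and the platelet integrin gene ITGA2B with 11 at 50 bp from the TSS.

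For factor and chromatin genes the intervals included the share of all genes. ETS factors had 2 of 28, ETS1 with 15 fragments and ETS2 with 19, and AP-1 factors 1 of 19, BATF2, which the IFN-γ response list also holds. Histone acetyltransferases and deacetylases had 2 of 30, HDAC1 and HDAC9 with 18 fragments each. SWI/SNF subunits had 4 of 27, PHF10 with 34 fragments, SMARCD1 with 30 and ARID1A and DPF2 with 16 each. DNA repair genes had 4 of 34 with CHEK2 highest at 20 fragments, autophagy genes 3 of 31 with WIPI2 highest at 17, and aminoacyl-tRNA synthetases 3 of 20 with SARS1 highest at 19.

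By symbol family, 45 of 566 zinc finger genes had a region (7.95%), 37 of 374 solute carriers (9.89%), 23 of 238 transmembrane protein genes (9.66%), 9 of 75 RAB GTPases (12.0%), 9 of 77 tripartite motif genes (11.7%) and 5 of 44 collagens (11.4%). The interval of the zinc finger genes, 5.86 to 10.49%, lay just below the 10.6% of all genes. The intervals of the solute carriers, transmembrane protein genes, RAB GTPases, tripartite motif genes and collagens included it. Of ribosomal protein genes 6 of 99 cytosolic (6.06%, 2.26 to 12.7%) and 4 of 78 mitochondrial ones (5.13%, 1.41 to 12.6%) had a region, with intervals that include the 10.6% of all genes, and 89 and 68 of them had an IFN-γ promoter peak. HOX genes had 1 of 39 and histone genes 6 of 93. Keratins had 8 of 55 (14.5%, 6.50 to 26.7%), 4 of them without a control promoter peak, where 11 of all 55 had one. Protocadherins had 5 of 66. Olfactory receptors had 6 of 400 (1.5%, 0.552 to 3.24%), below the share of all genes. All 6 lacked a control promoter peak, as did most of the family, where 4 of 400 had one.

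Regions were spread over the chromosomes much as other promoter peaks were. They made up 18.1% of the IFN-γ promoter peaks outside repeats on chromosome 19, the lowest share of the autosomes, and 29.5% on chromosome 18, the highest, with 203 and 67 regions. Chromosome 1 held the most, 399. Chromosome X held 122, where 28.1% of these peaks were regions of this class.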

How the data were processed

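Flag ChIP-seq was made once from control and once from IFN-γ-treated HK1 cells that overexpress Flag-FLI1. Per the methods, the authors' pipeline ran Cutadapt (1.18), Bowtie2 (2.3.4.1, assembly GRCh38), Picard for duplicates and MACS2 (2.1.2) for the peaks of each library. Whether the input served as background is not given in the sources used here. The deposited peak lists hold a score, a fold enrichment over background, and −log10 p and −log10 q values, and the lowest −log10 p was 3.46 and the lowest −log10 q 1.30. Both lists thus end at a stricter limit than the p-value cutoff that the methods state, and the cutoff that decided a called or absent peak is not settled by the sources used here. The score was not used. Read counts and depths are not in these lists: pileup and local background were solved from the deposited fold enrichment and −log10 p as Poisson values, with a largest relative error of 6.21e-06.

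Overlap meant 1 shared base. Each summit was assigned to the nearest TSS of GENCODE 44, with ties going to the MANE transcript and then to protein-coding genes. GC content and 20 motifs, on both strands, were read from GRCh38 within 100 bp of the summit and in windows centred 1 kb to either side. Shares have exact Clopper-Pearson 95% intervals, which cover counting error only and treat peaks as independent. No test between conditions was possible. Each step was tested on simulated data. Python 3.11.15, numpy 2.4.6, pandas 2.3.3, scipy 1.17.1 and pysam 0.24.0 were used.

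The members, gene lists and motifs were chosen with earlier results of these data known. Genes were named as those of the 15 members of highest −log10 p, members at genes of 18 lists, the 5 strongest members with each interferon motif, the 3 strongest with runs of 3 and genes that the study names (among them IDO1, CREBBP, KAT5 and FLI1). CACNA1A, IGF2BP3 and STARD13 were named after their values were seen. CGCGCG, ETS octamer and the other motifs are fixed letter strings, and matches are descriptions, not binding sites. Some results of this rule are not reported here.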

Additional observations from a re-analysis of the deposited data

How the results depend on the processing

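The values kept their place under a q-value under 0.01, with runs of 3 left out, on assembled chromosomes alone and for members visible at the control depth. Among alternatives that moved a value beyond its interval, lists of equal length (the 30819 strongest IFN-γ peaks) left 2225 peaks, with 46.2% within 1 kb of a TSS, a median GC content of 46.3%, the ETS octamer in 15.0%, AP-1 in 23.2% and a control promoter peak at the gene of 56.4%. Counting as shared only peaks with summits within 100 bp left 7813 peaks, with 69.1%, 55.7%, 9.24% and 12.6% in the same order, 70.5% at protein-coding genes and 78.7% at genes with a control promoter peak. Leaving out peaks with a control peak within 500 bp gave 47.5% within 1 kb, AP-1 in 20.7%, protein-coding genes for 59.0% and a control promoter peak for 52.2%. A promoter window of 1 kb left 2241 peaks, with 90.7% within 1 kb, a GC content of 49.8%, AP-1 in 16.2% and protein-coding genes for 64.9%. With 1 TSS per gene, 45.8% lay within 1 kb, 10.2% held the octamer, 45.9% were at protein-coding genes and 45.0% at genes with a control promoter peak. Members with a pileup of 12 to 20, an alternative chosen after seeing the data, numbered 2216 and held AP-1 in 17.5%. GC content within 500 bp of the summit was 46.3%, a motif window of 50 bp gave 9.64% for the octamer and 12.4% for AP-1, the core GGAA alone was in 97.3%, and any protein-coding TSS within reach raised that share to 67.5%. Depth limits the absence of a control peak, which does not show absence of signal. No paired analysis was possible because there was a single Flag library for control and for IFN-γ.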
